A study of Drosophila melanogaster with 6 samples.

Results

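The genes described here encode the phototransduction cascade of the Drosophila eye and its transient receptor potential (TRP) channels. They were chosen by name: norpA, trp, trpl, inaC, inaD, ninaC, Galphaq, Gbeta76C, rdgA and rdgB, each through every probe set that the array annotation gives exactly 1 symbol. The rule found 14 of the 18769 tested probe sets, standing for 8 of the 10 genes. Galphaq had 3 probe sets, rdgA 4 and rdgB 2, and trp, trpl, inaC, inaD and Gbeta76C had 1 each. No probe set with 1 symbol named norpA, the phospholipase C gene, or ninaC, a myosin III gene, so both were not analysed here.

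In a fly photoreceptor, light-activated rhodopsin acts through a heterotrimeric Gq protein on phospholipase C, which splits the membrane lipid PIP2, and the TRP and TRPL cation channels then open. The scaffold protein INAD holds TRP, phospholipase C and the eye-specific protein kinase C together in the rhabdomere, the light-sensing membrane stack of the cell. RDGA, a diacylglycerol kinase, and RDGB, a phosphatidylinositol transfer protein, serve the lipid cycle that removes diacylglycerol and rebuilds PIP2.

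RNA came from heads of female Drosophila melanogaster grown at 25 °C, and transcript levels were read on 6 Affymetrix oligonucleotide arrays. Control flies were collected at zeitgeber time 3 (ZT3, hours counted from lights-on) and at ZT15, with 2 arrays at each time. Flies labelled Tim-Fbl in the RNAi field were collected at the same times, with 1 array each, and no Tim-Fbl value could be checked against a second array. The labels give neither the driver and target constructs behind that name, nor the control's genotype, age or light cycle, nor whether replicate arrays came from separate cultures, so the p-values reflect the spread among these arrays alone, which may be technical.

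The gene fbl, whose name the label Tim-Fbl carries, was read first. The level of fbl, which encodes pantothenate kinase, was 9.28 and 9.26 on the control ZT3 arrays, 9.27 and 9.11 on the control ZT15 arrays, 7.47 on the Tim-Fbl ZT3 array and 7.49 on the Tim-Fbl ZT15 array, in log2 signal. Its level was lower on both Tim-Fbl arrays than on every control array. Its single probe set carries the manufacturer's suffix for sequence shared with other transcripts. Array medians lay between 5.46 and 5.51. The median of the 12 poly-A spike-in probe sets was 6.76 on the Tim-Fbl ZT15 array, against 5.22 to 5.89 on the control arrays. For 18S rRNA the median signal was 11.4 on control ZT15 replicate 2, 11.5 and 11.8 on the Tim-Fbl arrays of ZT3 and ZT15, and 12.3 to 12.7 on the other control arrays. The excess of the signal at the transcript's end over that at its start was 4.18 to 4.42 for eIF-4a on the control arrays and 4.62 and 4.39 on the Tim-Fbl arrays of ZT3 and ZT15. The part of these array differences in the results was not tested.

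The head preparations carried photoreceptor RNA on every array. Arr1 and Arr2, which encode the arrestins of the photoreceptor, had signals of 13.67 to 13.92 and 14.17 to 14.31, and chp, which encodes the photoreceptor surface protein chaoptin, 12.20 to 12.72. Of the 14 member probe sets 13 had a mean log2 signal of at least 7, where dim signal does not limit the comparison. The exception, rdgA probe set 4, lay between 5.31 and 5.53, about the array medians. Probe sets of 1 gene are numbered here from the brightest down. The trpl probe set and Galphaq probe sets 1 and 3 carry the shared-sequence suffix too.

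The first comparison asked whether cascade transcripts in control heads differed between ZT3 and ZT15. No member passed the test (limma, adjusted p under 0.05 over all probe sets), in a fit where 0.703% of all probe sets passed. The channel genes trp and trpl and the lipid-cycle genes rdgA and rdgB had higher values at ZT15, while the scaffold gene inaD and the kinase gene inaC had lower ones. At an unadjusted p under 0.05 there were 8 member probe sets, against 17.3% of all probe sets.

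The 2 control arrays of one time did not overlap those of the other in 12 of the 14 member probe sets, against 52.2% of all probe sets tested. Of these, 9 were higher at ZT15 (26.5% of all probe sets) and 3 were lower (25.6%). Among probe sets with a mean log2 of at least 7, the kind that holds all 12, the share without overlap was 62.3%. The count depended on the scaling: it was 11 after subtraction of array medians, 7 after quantile normalization and 8 after cyclic loess, each applied to the deposited values. Over all probe sets with a mean log2 of at least 7 the share without overlap was 66%, 57.6% and 58.7% under the same scalings, so the counts of 7 and 8 of 14 were near the background. The probe sets that stayed apart under every one of these scalings were those of trp, trpl, inaC and inaD, rdgA probe sets 1 and 2 and rdgB probe set 1.

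**Figure D1:**
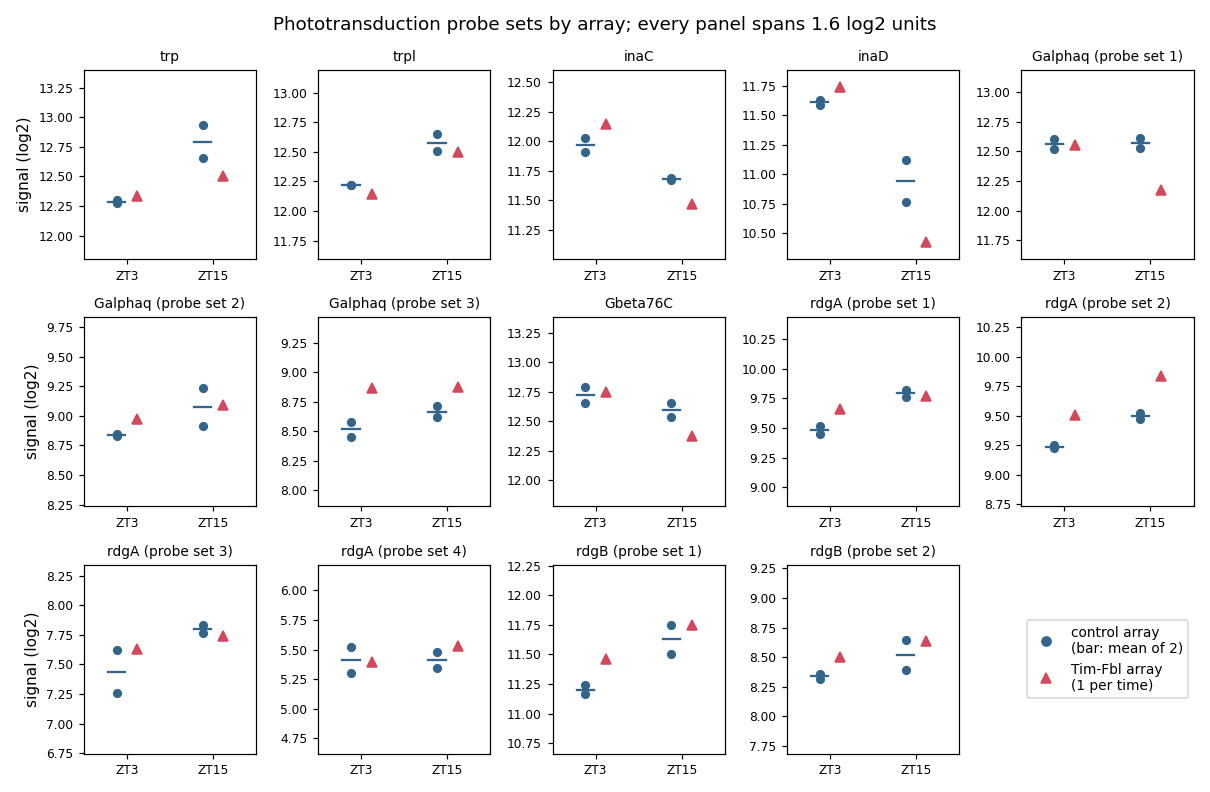
Log2 signal (y axis, each panel spanning the same range) of the 14 member probe sets at ZT3 and ZT15, with control arrays as circles, their mean of 2 as a bar, and the single Tim-Fbl arrays as triangles. The trp and trpl arrays sit higher at ZT15 and the inaC and inaD arrays lower, in both strains.

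The genes of both light-sensitive channels had higher values on the control ZT15 arrays, and neither passed. The gene trp encodes the main, calcium-permeable channel. Its signal was 12.30 and 12.27 on the control ZT3 arrays, 12.65 and 12.93 on the control ZT15 arrays, 12.34 on the Tim-Fbl ZT3 array and 12.50 on the Tim-Fbl ZT15 array. Both control ZT15 arrays lay above both control ZT3 arrays, and the Tim-Fbl ZT15 array lay between the control groups. The control difference was 0.51 ± 0.12 (SE) in log2 signal, or 1.42-fold, which did not pass (limma adjusted p = 0.134). Without control ZT15 replicate 1, the lower of its pair, it was 0.65 and passed (limma adjusted p = 0.0483).

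The gene trpl encodes the second channel, TRPL, which in fly photoreceptors moves out of the rhabdomere in the light. Its signal was 12.22 on each control ZT3 array, 12.65 and 12.51 on the control ZT15 arrays, and 12.14 and 12.50 on the Tim-Fbl arrays of ZT3 and ZT15. The ZT15 arrays were higher in both strains, by 0.36 ± 0.09 (SE) in controls and by 0.36 between the Tim-Fbl arrays, each 1.28-fold. The control difference did not pass (limma adjusted p = 0.167).

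Unlike the channel genes, the scaffold and kinase genes of the INAD complex had lower values at ZT15. The scaffold gene inaD had the largest time difference of the members. Its signal was 11.63 and 11.59 on the control ZT3 arrays, 10.77 and 11.12 on the control ZT15 arrays, 11.74 on the Tim-Fbl ZT3 array and 10.43 on the Tim-Fbl ZT15 array. All ZT15 arrays lay below all ZT3 arrays, and the Tim-Fbl arrays were the highest and the lowest of the 6. The control difference was -0.67 ± 0.13 (SE), or 1.59-fold, and did not pass (limma adjusted p = 0.0928), while the Tim-Fbl arrays differed by -1.31, or 2.48-fold. The control ZT15 pair spread by 0.249 (SD, n = 2). Without control ZT15 replicate 2, the higher of that pair, the difference was -0.84 and passed (limma adjusted p = 0.0281), and across all alternatives it ranged from -0.88 to -0.49.

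The gene inaC encodes the eye-specific protein kinase C that helps to end the light response. Its signal was 12.03 and 11.91 on the control ZT3 arrays, 11.69 and 11.67 on the control ZT15 arrays, 12.14 on the Tim-Fbl ZT3 array and 11.47 on the Tim-Fbl ZT15 array. As with inaD, all ZT15 arrays lay below all ZT3 arrays and the Tim-Fbl arrays held both extremes. The control difference was -0.29 ± 0.09 (SE), which did not pass (limma adjusted p = 0.218), and the Tim-Fbl difference was -0.68.

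The lipid-cycle genes had higher values at ZT15 in most probe sets. The brighter rdgB probe set read 11.24 and 11.17 on the control ZT3 arrays, 11.51 and 11.75 on the control ZT15 arrays, and 11.46 and 11.75 on the Tim-Fbl arrays of ZT3 and ZT15. The control groups did not overlap, and their difference was 0.43 ± 0.11 (SE), 1.34-fold, without passing (limma adjusted p = 0.167). The dimmer rdgB probe set differed by 0.18 ± 0.11 (SE) in controls and by 0.14 in Tim-Fbl. Of the 4 rdgA probe sets, probe sets 1 to 3 were higher on both control ZT15 arrays than on both control ZT3 arrays, by 0.31, 0.26 and 0.36, none of which passed (limma adjusted p of 0.189, 0.232 and 0.249). Probe set 4, the dim one, overlapped between the times.

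The G protein genes did not pass between times, and their probe sets did not share a direction. Gbeta76C, the eye-specific beta subunit, read 12.79 and 12.66 on the control ZT3 arrays, 12.66 and 12.54 on the control ZT15 arrays, and 12.75 and 12.37 on the Tim-Fbl arrays of ZT3 and ZT15. The control pairs were separated only beyond the second decimal, and the difference of -0.13 ± 0.10 (SE) did not pass (limma adjusted p = 0.521), while the Tim-Fbl arrays differed by -0.38. The 3 probe sets of Galphaq, the alpha subunit that activates phospholipase C, disagreed. Probe set 1 gave a control time difference of 0.01 ± 0.09 (SE) with overlapping arrays, probe set 2 gave 0.23 ± 0.12 and probe set 3 gave 0.15 ± 0.10, and none passed. Between the Tim-Fbl arrays, which have no replicate, the same probe sets differed by -0.38, 0.12 and 0.01.

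The time difference was next set beside that of the Tim-Fbl arrays, which share no array with the controls. It had the same sign in both strains for 12 of the 14 member probe sets, against 57.5% of all probe sets tested and 57.1% of those with a mean log2 of at least 7. The 12 were those whose control arrays did not overlap. The remaining pair were Galphaq probe set 1 and rdgA probe set 4, whose control differences were 0.01 and -0.00. Leaving out any 1 control array gave 13 in place of 12, as did subtracting array medians, and quantile normalization and cyclic loess gave 12. The median of the member probe sets was 0.21 in controls and 0.12 in Tim-Fbl. Over all probe sets with a mean log2 of at least 7 the medians were 0.09 and 0.00.

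**Figure D2:**
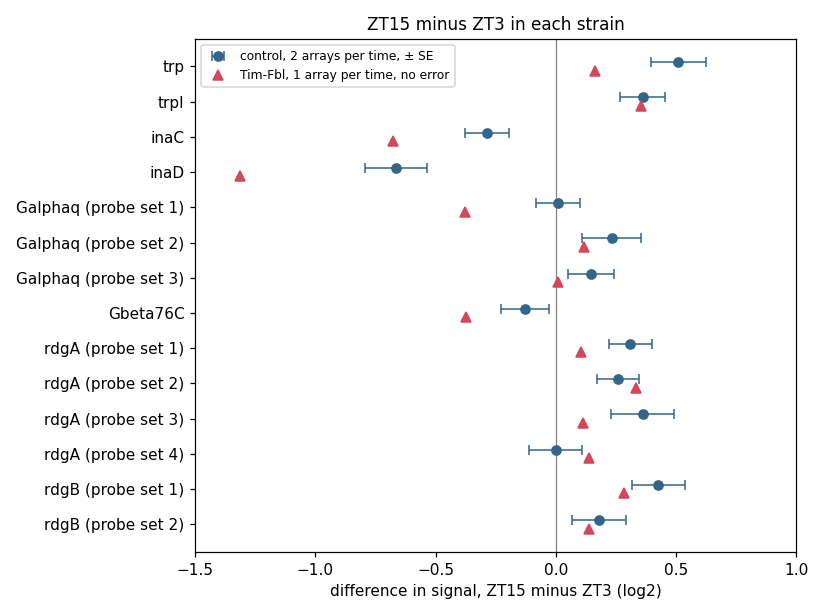
Difference in log2 signal between ZT15 and ZT3 (x axis) for each member probe set (y axis), for controls as circles with the limma SE and for the single Tim-Fbl arrays as triangles without error. The differences of inaC and inaD lie below 0 in both strains, and those of trp, trpl, rdgB and rdgA probe sets 1 to 3 lie above 0 in both.

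The strain-by-time interaction asked whether the time difference itself differed between Tim-Fbl and control. No member passed (limma, lowest adjusted p = 0.842), where 0.0373% of all probe sets passed. At an unadjusted p under 0.05 there were 3, inaD (interaction -0.65 ± 0.22 SE), inaC (-0.39 ± 0.16) and Galphaq probe set 1 (-0.38 ± 0.16), against 5.4% of all probe sets. All 3 values were below 0. The interaction was below 0 in 12 of the 13 member probe sets with a mean log2 of at least 7, against 65.3% of all such probe sets. The lowest signals of inaD, inaC, Galphaq probe set 1 and Gbeta76C were all on the Tim-Fbl ZT15 array, where the spike-in signal was high. The highest signals of inaD and inaC were on the Tim-Fbl ZT3 array, whose end-over-start excess was above that of every control array. The part of either array's quality in these values was not tested. Other members were not low on the Tim-Fbl ZT15 array. There trpl read 12.50, against 12.65 and 12.51 on the control ZT15 arrays, and rdgB probe set 1 read 11.75, against 11.51 and 11.75. In whole heads, a change in the number of photoreceptors and one in RNA per photoreceptor cannot be told apart, and neither was tested.

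The strain comparison asked which cascade transcripts differed between Tim-Fbl and control over both times. Of the 14 member probe sets 1 passed, in rdgA, against 8.79% of all probe sets, and at an unadjusted p under 0.05 there were 2, against 29.1%. The gene rdgA, whose product converts diacylglycerol to phosphatidic acid, read 9.25 and 9.23 on the control ZT3 arrays, 9.47 and 9.52 on the control ZT15 arrays, 9.50 on the Tim-Fbl ZT3 array and 9.84 on the Tim-Fbl ZT15 array by probe set 2. At each time the Tim-Fbl array lay above both control arrays, although the Tim-Fbl ZT3 value lay within the range of the control ZT15 arrays. The probe set rose by 0.30 ± 0.07 (SE), 1.23-fold (limma adjusted p = 0.0438). The other rdgA probe sets differed by 0.08 ± 0.08, 0.07 ± 0.12 and 0.05 ± 0.09 (SE) without passing. The mean over the 4 probe sets gave 0.12 (limma adjusted p = 0.259), and quantile normalization (0.24, adjusted p = 0.0916), cyclic loess (0.22, adjusted p = 0.117) and the fit of 4 group means (0.30, adjusted p = 0.0551) also ended the call. So did leaving out any 1 of the 6 arrays, with values of 0.27 to 0.34.

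Galphaq probe set 3 was the other probe set at an unadjusted p under 0.05. It read 8.58 and 8.46 on the control ZT3 arrays, 8.62 and 8.71 on the control ZT15 arrays, and 8.87 and 8.88 on the Tim-Fbl arrays of ZT3 and ZT15. It was the single member probe set whose Tim-Fbl arrays both lay outside the range of all control arrays, against 36.4% of all probe sets, and its difference of 0.28 ± 0.08 (SE) did not pass (limma adjusted p = 0.077). Galphaq probe set 1 differed by -0.20 ± 0.10 (SE), the opposite sign, and reached 12.17 on the Tim-Fbl ZT15 array against 12.52 to 12.61 on the control arrays. The channel genes did not pass between strains, with -0.12 ± 0.11 (SE) for trp and -0.08 ± 0.08 for trpl. For inaD, inaC, trp and Gbeta76C the Tim-Fbl array was above the control mean at ZT3, by 0.13, 0.18, 0.05 and 0.02, and below it at ZT15, where the differences were -0.51, -0.21, -0.29 and -0.22.

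**Figure D3:**
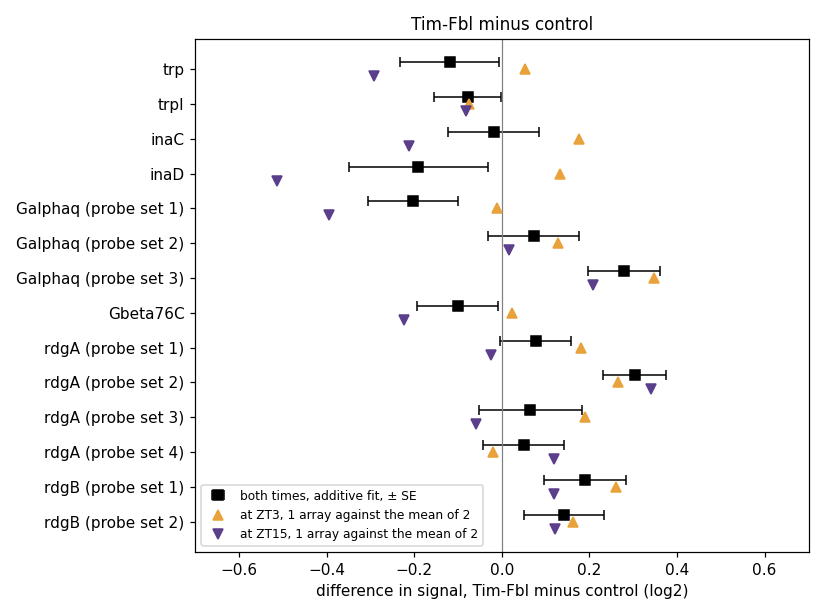
Difference in log2 signal between Tim-Fbl and control (x axis) for each member probe set (y axis): squares give the additive fit over both times with the limma SE, and triangles the single Tim-Fbl array against the control mean at ZT3 and at ZT15. The square of rdgA probe set 2 is the one that passed, at 0.30.

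The genes whose profiles over the 6 arrays came closest to that of rdgA probe set 2 were SP2353, Pi3K68D, a class II phosphatidylinositol 3-kinase gene, and DopEcR, a dopamine and ecdysteroid receptor gene. The root-mean-square difference between mean-centred log2 profiles was 0.0215, 0.0277 and 0.0364, among 5991 genes with a mean log2 of at least 7.

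Further genes of the cascade were read from lists, using the brightest probe set of each gene. Of 29 cascade partners and regulators, 22 were measured. In controls 0 rose and 1 fell between ZT3 and ZT15, with a median of 0.06, and between strains 1 rose and 0 fell, with a median of 0.04. Over all 11982 named genes the medians were 0.01 for each comparison, 0.426% rose and 0.526% fell between times, and 6.79% rose and 3.76% fell between strains. The gene that passed both tests was laza, a lipid phosphate phosphatase that acts against the kinase RDGA. Its signal was 9.73 and 9.58 on the control ZT3 arrays, 9.04 and 8.97 on the control ZT15 arrays, and 10.11 and 9.45 on the Tim-Fbl arrays of ZT3 and ZT15. In controls laza fell by 0.65 on the log2 scale, 1.57-fold (SE 0.10, limma adjusted p = 0.0465), and between the Tim-Fbl arrays it differed by -0.66. It was higher on the Tim-Fbl array than on both control arrays at each time, and rose by 0.45 ± 0.08 (SE) between strains (limma adjusted p = 0.0181). The time call was lost on leaving out any control array but ZT15 replicate 1 (limma adjusted p of 0.0894, 0.13 and 0.138), on median subtraction (0.0513) and on dropping dim probe sets, below a mean log2 of 5 or of 7 (0.0649 and 0.0519). The strain call was lost without either Tim-Fbl array (limma adjusted p of 0.141 and 0.0994).

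The gene rdgC, which encodes the rhodopsin phosphatase, is named here after its values were seen, because its 2 probe sets disagreed. The dimmer one read 9.34 and 9.07 on the control ZT3 arrays, 10.43 and 10.18 on the control ZT15 arrays, and 9.29 and 10.27 on the Tim-Fbl arrays of ZT3 and ZT15. All ZT15 arrays lay above all ZT3 arrays. It rose 2.14-fold in controls (log2 difference 1.09 ± 0.13 SE, limma adjusted p = 0.0261) and was 1.97-fold higher on the Tim-Fbl ZT15 array than on the Tim-Fbl ZT3 array. Dropping control ZT3 replicate 1 or 2 ended the call (1.23 and 0.96, limma adjusted p of 0.0502 and 0.137). The brighter rdgC probe set differed by 0.35 ± 0.09 (SE) in controls (limma adjusted p = 0.166) and by -0.06 between the Tim-Fbl arrays.

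The other partners did not pass by their brightest probe sets in either comparison. Their time differences in controls ran from -0.20 for Pld, a phospholipase D gene, to 0.79 ± 0.15 (SE) for Camta, a calmodulin-binding transcription factor gene. Camta read 6.36 and 5.91 on the control ZT3 arrays, 6.95 and 6.90 on the control ZT15 arrays, and 6.54 and 7.36 on the Tim-Fbl arrays of ZT3 and ZT15. ZT15 was higher in both strains, by 1.73-fold in controls (limma adjusted p = 0.0913). The 3 dimmer Camta probe sets, with signals of 3.94 to 4.60, differed by -0.06, -0.08 and -0.09. Cnx99A, a calnexin chaperone needed for rhodopsin maturation, read 10.38 and 10.39 on the control ZT3 arrays, 11.01 and 10.91 on the control ZT15 arrays, and 10.34 and 10.95 on the Tim-Fbl arrays of ZT3 and ZT15. Its control difference of 0.58 ± 0.09 (SE) did not pass (limma adjusted p = 0.0555), and the Tim-Fbl arrays differed by 0.60. It is named here after its values were seen, as are Pld, Camta and rtp (retinophilin), a photoreceptor protein gene. The Cnx99A and Pld probe sets carry the suffix for shared sequence. The rtp arrays of the control times overlapped, while the Tim-Fbl arrays went from 12.77 at ZT3 to 12.19 at ZT15 and the interaction was -0.58 ± 0.19 (SE, limma adjusted p = 0.842). The arrestin genes Arr1 and Arr2 differed by 0.17 and 0.06 in controls, neither of which passed. Of 7 rhodopsin genes 1 was measured, Rh7, whose product is a rhodopsin also found outside the retina, and its brighter probe set differed by 0.25 between times and by 0.11 between strains without passing. The dimmer probe set of Rh7, which carries the suffix for shared sequence, went the other way in both comparisons, at -0.30 and -0.19, also without passing.

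Of the 12 measured eye transcription factor genes of 13, 2 rose in controls, 0 fell and 10 did not pass, with a median of 0.41 and all 12 values above 0. Over all named genes 0.426% rose and 53.1% of the values were above 0. The median over all probe sets with a mean log2 of at least 7 was 0.09. The gene gl (glass), a zinc finger factor needed for photoreceptor differentiation, read 8.49 and 8.28 on the control ZT3 arrays, 9.31 and 9.22 on the control ZT15 arrays, and 8.76 and 9.25 on the Tim-Fbl arrays of ZT3 and ZT15. It rose 1.84-fold in controls (limma adjusted p = 0.0261), and without control ZT3 replicate 2 it did not pass (adjusted p = 0.122). The gene oc (orthodenticle), a homeobox factor of photoreceptors, rose 1.81-fold in controls, from 7.03 and 6.87 to 7.70 and 7.92 (limma adjusted p = 0.0345), and read 7.38 and 8.16 on the Tim-Fbl arrays. Its time call held in 9 of 15 alternatives and was lost on leaving out any control array but ZT15 replicate 1 (adjusted p from 0.0632 to 0.187).

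**Figure D4:**
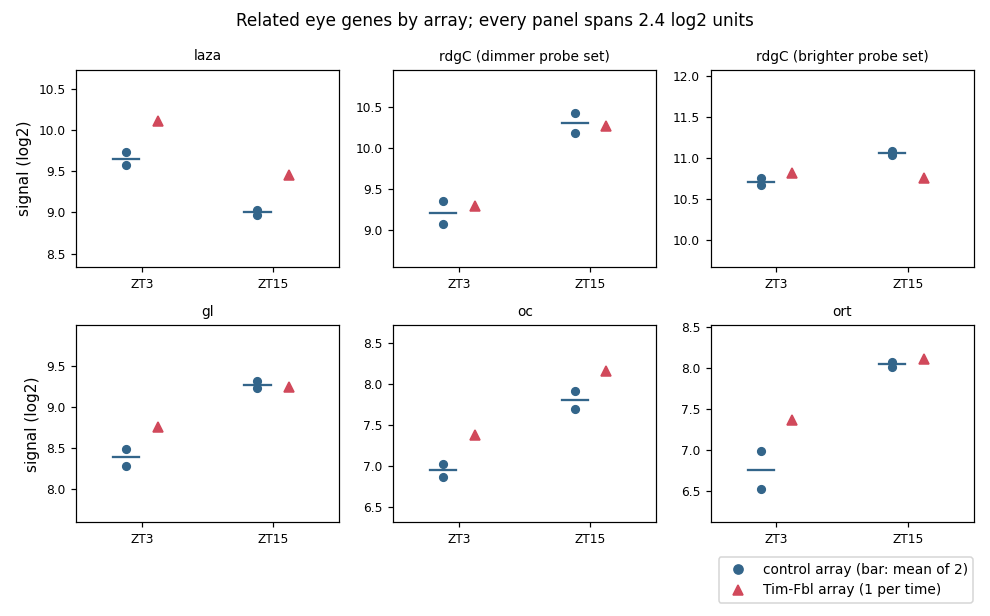
Log2 signal (y axis, each panel spanning the same range) at ZT3 and ZT15 of laza, both probe sets of rdgC, gl, oc and ort, with control arrays as circles, their mean of 2 as a bar, and single Tim-Fbl arrays as triangles. The laza arrays sit lower at ZT15 and the gl, oc and ort arrays higher, in both strains.

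In the strain comparison these 12 factor genes had a median of 0.29 and all 12 values above 0, against 51.4% of all named genes. The median over all probe sets with a mean log2 of at least 7 was 0.09. Of the factor genes 4 rose, 0 fell and 8 did not pass, where 6.79% of all named genes rose. They were pros (0.44 ± 0.08 SE) and salm (0.44 ± 0.08), which act in inner photoreceptors, ss (0.54 ± 0.12), which acts in the choice of rhodopsin, and oc (0.39 ± 0.09), at limma adjusted p of 0.0202, 0.0193, 0.0413 and 0.0452. The signal of ss was dim, at 3.69 to 4.74, near the lower quartiles of the arrays. Each of the 4 calls was lost without either Tim-Fbl array. Those of pros and salm were also lost without replicate 1 of control ZT3 (limma adjusted p of 0.0565 and 0.0549) or of control ZT15 (0.0626 and 0.0549), and that of ss without control ZT15 replicate 1 or 2 (0.0783 and 0.0713). The call of oc held in 6 of 16 alternatives, and of the left-out arrays it held only without control ZT15 replicate 2. A further, dimmer probe set of toy, at 5.97 to 7.26, passed between strains (0.67 ± 0.13 SE, limma adjusted p = 0.0256). The brightest toy probe set did not (0.37, limma adjusted p = 0.0635). A dimmer dve probe set, at 4.71 to 5.14, was below 0 in both comparisons without passing, at -0.28 between strains and -0.16 between times. Both toy and dve were picked after their values were seen.

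Among 5 of 6 measured genes of the photoreceptor synapse 1 rose in controls, against 0.426% of all named genes. In this list 0 fell and 4 did not pass, with a median of -0.04. The gene that rose was ort, a histamine-gated chloride channel of the neurons that receive photoreceptor output. It read 6.98 and 6.53 on the control ZT3 arrays, 8.07 and 8.01 on the control ZT15 arrays, and 7.37 and 8.11 on the Tim-Fbl arrays of ZT3 and ZT15, a 2.44-fold control rise (limma adjusted p = 0.0254). Without control ZT3 replicate 2 it was 1.06 on the log2 scale and did not pass (adjusted p = 0.0609). No gene of this list passed in the strain comparison.

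Other channel genes of the TRP family and the paralogs of the cascade enzymes were read for comparison. Of 14 such TRP family genes 11 were measured, and 0 passed in controls between times (limma). At an unadjusted p under 0.05 there were 2, against 20.5% of all named genes. These were wtrw, a TRPA channel gene, at 0.59 ± 0.11 (SE, limma adjusted p = 0.0948), and Trpm, a TRPM channel gene, at 0.54 ± 0.15 (SE, limma adjusted p = 0.185). Both are named here after their values were seen. The wtrw probe set carries the suffix for shared sequence. The dimmer Trpm probe sets differed by 0.24, 0.01 and 0.09. Between strains 1 rose, against 6.79% of all named genes, and it was pain, a TRPA channel gene of nociception. It read 6.80 to 7.05 on the control arrays and 7.64 and 7.61 on the Tim-Fbl arrays of ZT3 and ZT15, a 1.58-fold rise (0.66 ± 0.09 SE, limma adjusted p = 0.00847) that was lost without either Tim-Fbl array (adjusted p of 0.0963 and 0.0513).

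Of 16 measured paralog genes of 18, 0 passed between times (limma), with 6 at an unadjusted p under 0.05, against 20.5% of all named genes. Between strains 2 rose and 1 fell, against 6.79% and 3.76% of all named genes. Galphao, the Go alpha subunit of the nervous system, read 9.27 and 9.29 on the control ZT3 arrays, 9.43 and 9.70 on the control ZT15 arrays, and 10.24 and 10.33 on the Tim-Fbl arrays of ZT3 and ZT15. Both Tim-Fbl arrays lay above all control arrays, a 1.82-fold rise (0.86 ± 0.10 SE, limma adjusted p = 0.00386) that held in all 16 alternatives. Plc21C, a phospholipase C beta expressed outside the eye as well, rose by 0.40 ± 0.07 (SE, limma adjusted p = 0.0202), and Dgk, a diacylglycerol kinase gene, fell by 0.45 (SE 0.10, limma adjusted p = 0.0418) at a dim signal of 5.02 to 5.77. The Galphao and Plc21C probe sets carry the suffix for shared sequence. The Plc21C call was lost without control ZT3 replicate 1 or either Tim-Fbl array, and the Dgk call without any 1 array but control ZT3 replicate 1. With all arrays kept, the Dgk call was also lost on median subtraction (limma adjusted p = 0.0526), quantile normalization (0.0833), cyclic loess (0.0623) and with 1 test per gene (-0.25, adjusted p = 0.0752), and it held in 6 of 15 alternatives.

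Marker lists of the cells in a head were set beside these values, again by the brightest probe set of each gene. The mean log2 of the 5 measured of 6 photoreceptor markers was 10.94 and 10.86 on the control ZT3 arrays. It was 11.18 and 11.13 on the control ZT15 arrays and 10.91 and 11.08 on the Tim-Fbl arrays of ZT3 and ZT15. None of these markers passed in either comparison. A dim further probe set of eys in this list, at 3.71 to 4.35, passed between strains (-0.45, limma adjusted p = 0.0332). The 3 measured of 5 neuron markers averaged 8.50 and 8.47 on the control ZT3 arrays, 8.69 and 8.84 on the control ZT15 arrays and 8.76 and 8.88 on the Tim-Fbl arrays, and none passed. The 6 glia markers averaged 10.48 to 10.68 on the control arrays and 10.73 and 10.72 on the Tim-Fbl arrays. Of these alrm rose by 0.34 between strains, a call lost on leaving out any 1 array. The others did not pass, with 0.32 for moody, 0.28 for wrapper, 0.22 for repo, -0.16 for nrv2 and -0.27 for Gs2. The nrv2 probe set carries the suffix for shared sequence. Of the eye pigment and cone cell markers, 3 of 5 were measured, averaging 11.33 to 11.59 on the control arrays and 9.37 and 8.86 on the Tim-Fbl arrays. In that list Pdh, a retinol dehydrogenase gene of pigment cells, fell by 3.87 and se, an eye pigment enzyme gene, fell by 2.98. The remaining gene of that list, santa-maria, differed by -0.26 without passing. Whether it marks pigment or cone cells was not tested, and the averages of the list include it. The 3 measured of 5 muscle markers averaged 8.99 to 9.18 on the control arrays and 9.39 and 9.64 on the Tim-Fbl arrays. Of these Act88F rose by 1.31, while Mlc2 and up differed by -0.07 and 0.13 without passing. Of 6 fat body markers, at 12.4 to 12.8 on the control arrays and 12.4 and 12.6 on the Tim-Fbl arrays, none passed. The part of these marker differences in the rdgA, laza and Galphao values was not tested.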

How the data were processed

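RNA from female heads was hybridised to 6 arrays. The scale of the deposited values, log2, was read from their range. Per the submitters' processing notes they were made with RMA. That method brings the probe intensities of all arrays onto 1 distribution and then summarises each probe set. The summarised values did not share 1 distribution exactly, with array lower quartiles of 3.99 to 4.16. The version of RMA and the genome build are not given in the sources used here, so no coordinates are printed. A shift common to all transcripts would not be seen, and the number of arrays limits the precision.

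Of 18952 probe sets, 183 manufacturer's controls were left out. Gene names came from the platform annotation, which gave 1 symbol to 13647 of the 18769 tested probe sets, several to 402 and none to 4720. Symbols were compared by gene ID with RefSeq's Release 6 table, which changed 0 and did not hold the IDs of 103. No value column was left unused.

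Tests used limma 3.58.1 (R 4.3.3), and p-values were adjusted by Benjamini-Hochberg across every tested probe set. The control time effect and the interaction came from a fit of 4 group means (2 residual degrees of freedom) and the strain effect from a model with strain and time as added terms (3). The lone Tim-Fbl arrays were assumed to vary like the control arrays. The functions were tested on simulated data. Members, lists and tests were chosen with earlier results of these data known. All member probe sets are named. From each list, the genes past the threshold are named, up to 6 by moderated statistic. Some list genes are named without passing, among them genes picked after their values were seen. Alternatives covered filters on dim probe sets, scalings, variance models, 1 test per gene, the replicate block and leaving out each array. Figures were drawn with matplotlib 3.10.9.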

Additional observations from a re-analysis of the deposited data

Results flagged for a closer look

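The poly-A spike-in probe sets, which no comparison uses, had a median log2 signal of 6.76 on the Tim-Fbl ZT15 array, above every control array (mean 5.42 ± 0.312 SD, n = 4). The Tim-Fbl ZT3 array had 5.17.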

How the results depend on the processing

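The number of probe sets past the limma threshold moved most. Of all probe sets, 132 passed between times in controls, and the count was 83 and 75 with probe sets below a mean log2 of 5 or 7 dropped, 214 with robust variances and 334 with the replicate block. For the interaction it was 7, and 0 with either filter, with quantile normalization or with cyclic loess, against 23 with the replicate block. For the strain effect it was 1650, and every setting that kept all arrays gave 1196 to 1936. Leaving out 1 array gave 27 (control ZT3 replicate 2) to 340 (control ZT15 replicate 1) between times, 395 (Tim-Fbl ZT3) to 1255 for the strain effect, and 0 to 57 for the interaction.

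Of the members, 0 passed between times, 1 with the replicate block (inaD), and 0 to 1 on leaving out 1 control array. The 1 strain call (rdgA) was 0 after quantile normalization, after cyclic loess, with 1 test per gene, with the replicate block, in the fit of 4 group means and on leaving out any 1 array. The member probe sets without overlap in controls numbered 7 after quantile normalization, in place of 12. The strain difference of Galphaq probe set 1 turned to 0.049 as the mean over the gene's probe sets. Leaving out 1 array, it ranged from -0.29 to 0.053 for trp, -0.22 to 0.023 for Gbeta76C and -0.51 to 0.13 for inaD, each above 0 without the Tim-Fbl ZT15 array. No other member value larger than its SE changed sign. Fewer probe sets or arrays entered under the filters and left-out arrays; for the other settings the cause was not tested.

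The labels do not say that replicate numbers pair the control arrays, and the differences between replicates at the 2 times correlated at 0.04 across probe sets, so the block has no basis in the design. The scalings and left-out arrays for the overlap and same-sign counts were added after seeing the data. The number of arrays limits the precision of every value here.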
